A study of Mus musculus with 19 samples.

Results

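Mouse blastoids, blastocyst-like structures built from embryonic stem cells, were compared between day 5 and day 4 of their culture, the last of the daily steps that were sampled. The members are all genes of the blastoid count table in the 6 libraries of these 2 days, 3 per day, out of 19 libraries in the series. The starting cells were the TT2 mouse embryonic stem cell line, kept on growth-inactivated feeder fibroblasts and given 20 nM pladienolide B (PlaB), an inhibitor of the splicing factor SF3B, for 6 h. They were then placed in 3D microwells in blastoid medium, and bulk RNA was profiled by Smart-seq2 on days 1 to 5. Every blastoid library comes from cells that had the PlaB treatment, and no untreated blastoid is among the libraries analysed here, so the day 4 and day 5 groups differ by time in blastoid culture alone as far as the labels say. The labels name 1 cell line, give the cell type as embryonic stem cell on all days, and do not say whether replicates are separate cultures. The p-values of genes therefore measure the spread between libraries of a day, estimated over all 15 blastoid libraries, and this spread may be technical. Of 54352 gene symbols in the table, 15121 passed the filter on low counts and were tested.

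A blastocyst is a hollow ball. Its outer epithelium, the trophectoderm, pumps ions and water into a cavity behind sealing tight junctions, and later forms the placenta. The inner cell mass splits into the epiblast, which holds the pluripotent cells that make the body, and the primitive endoderm, which covers it, lays down a basement membrane and later gives the yolk sac. Lineage choice is read from transcription factors: Cdx2, Gata3, Gata2 and Eomes in trophectoderm, Nanog, Sox2 and Pou5f1 in epiblast, and Gata6, Gata4 and Sox17 in primitive endoderm.

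The day 4 libraries held 6563862 to 7607021 counted reads and those of day 5 held 4093751 to 5523515, with no overlap. An exact permutation test gave p = 0.1, the smallest value that 3 libraries against 3 allow. Mitochondrially encoded genes took 5.03 ± 1.47% of counts on day 4 and 4.03 ± 0.606% on day 5 (SD, n = 3; exact permutation p = 0.5). GC-rich genes, of at least 54.46% GC, were set against GC-poor genes, of at most 42.84%. The balance was the difference of their median levels in a library, on a log2 scale and relative to all days. Its mean was 0.43 ± 0.13 on day 4 and -0.46 ± 0.51 on day 5 (SD, n = 3, exact permutation p = 0.1). In day 5 replicate 3 this balance was 0.11, against -0.86 and -0.63 in the other two. The same balance of long against short transcripts was -0.082 ± 0.13 on day 4 and 0.39 ± 0.15 on day 5, also without overlap (SD, n = 3; exact permutation p = 0.1), and its part in single results was not tested. The counts of each gene list are also given with the GC trend removed, with total-count scaling or with 1 library left out wherever that moved a count by over 1.5 times, or to or from 0. The 22 tested markers of feeder fibroblasts summed to 421 to 635 CPM (counts scaled to the size of the library) on day 4 and to 502 to 586 CPM on day 5.

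Between the 2 days 2133 genes rose, which is 14.1% of those tested, and 2188 fell, which is 14.5% (edgeR quasi-likelihood test, Benjamini-Hochberg adjusted p under 0.05). Together 28.6% of the tested genes changed, 1317 of them upward and 1686 downward by at least 2-fold. In 44.8% of tested genes the 3 libraries of day 5 did not overlap those of day 4. The counts of each gene list below are to be read beside these shares of all tested genes. Some lists overlap: 96 genes are in more than 1 list, so a gene can be counted in several. The median change over all genes was -0.017 on the log2 scale. When libraries were scaled by their total counts in place of trimmed means, that median moved by -0.214 and the split turned to 1361 higher and 3004 lower. Changes are therefore given relative to the median gene. Without day 4 replicate 3, 1405 genes rose, and without day 5 replicate 1, 1421 rose and 1455 fell. With the GC trend removed, 27.3% of genes changed, and 78.5% of the main calls passed again in the same direction. The plot of gene lists shows where calls lie mostly on 1 side: upward in trophectoderm factors, junctions, hypoxia-responsive genes and immediate early genes, and downward in pluripotency and visceral endoderm genes.

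**Figure D1:**
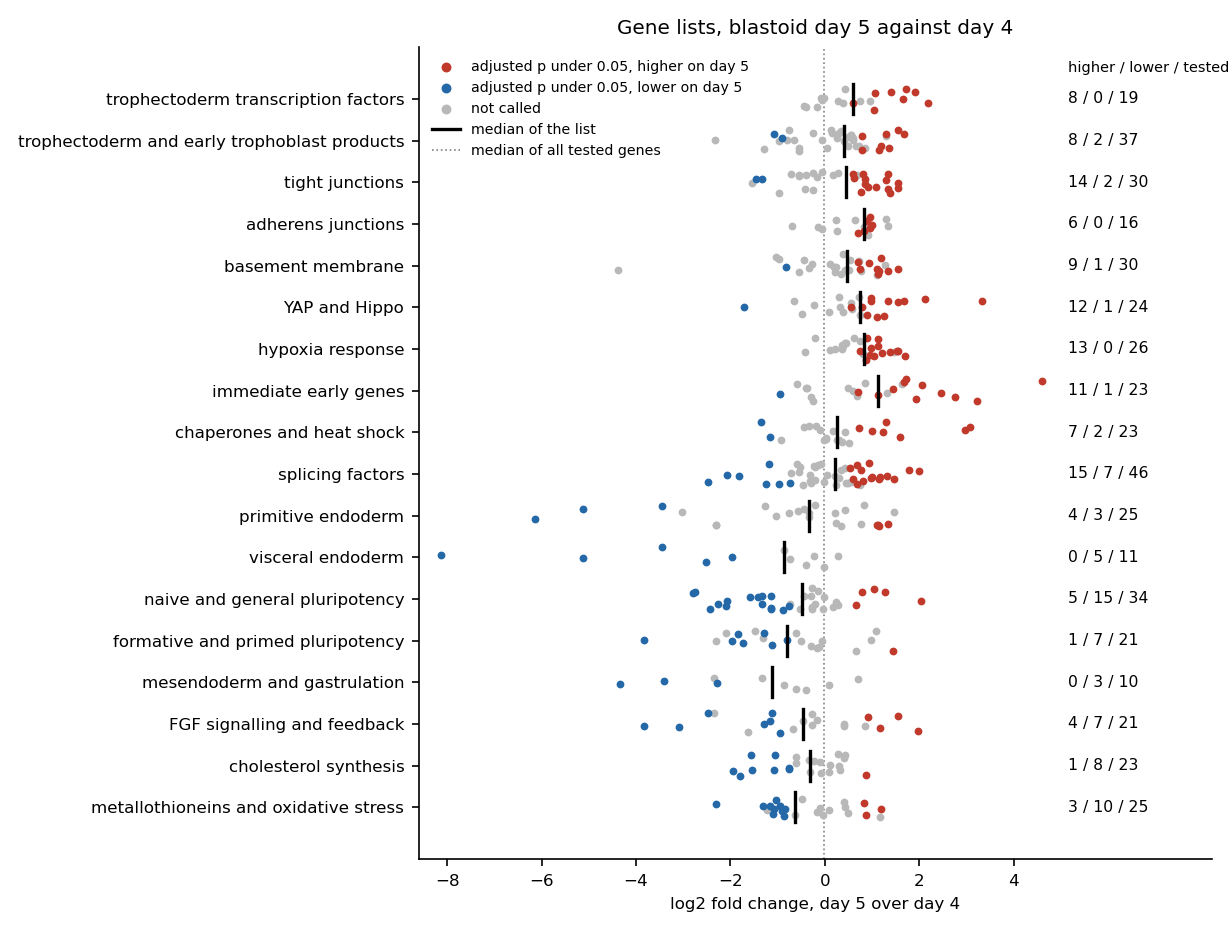
Change from day 4 to day 5 (log2 fold change) of every tested gene of 18 gene lists; each point is a gene, with coloured points for those past an adjusted p of 0.05 and the counts of called genes at the side. Trophectoderm factors, YAP and Hippo genes, hypoxia genes and immediate early genes lie mostly right of 0, and visceral endoderm and formative pluripotency genes mostly left of it.

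The 15 largest rises were taken among genes reaching at least 10 CPM. Neb (chr2:52136647-52378474, minus strand; coordinates given with a gene are those of the gene model in GRCm38), which encodes the giant muscle protein nebulin, was at 1.71, 6.15 and 5.23 CPM on day 4 and at 71.2, 54.7 and 55.3 CPM on day 5. All 3 day 5 libraries stood far above day 4, a log2 change of 3.79 ± 0.39 (SE, n = 3 per day; adjusted p = 3.37e-06). Pygm, the muscle glycogen phosphorylase, rose by 4.29 ± 0.64 and Ovgp1, an oviduct glycoprotein gene, by 4.27 ± 0.56, from day 4 means of 0.517 ± 0.432 and 1.09 ± 0.39 CPM (SD). Of the exons of Ovgp1, 1023 of 3561 bases are shared with the model Gm42890 on the same strand. Slc5a3, the myo-inositol cotransporter, went from 13.8, 13.5 and 10.5 CPM to 143, 110.4 and 71.4 CPM without overlap (3.10 ± 0.34, adjusted p = 5.06e-06). Arid4b, a subunit of a histone deacetylase complex, was the most abundant of these genes, with a mean of 102 ± 14.3 CPM on day 4 and 729.7 ± 169 CPM on day 5 (SD), a log2 change of 2.83 ± 0.27 (adjusted p = 2.66e-06). The other 10 named by size were Hecw1, Cdk5r1, Zc3h12b, Irx2, Atf3, Sox2ot, Pla2g4c, Hspa1b, Olr1 and Dnajb9, with log2 changes from 2.93 for Olr1 and 2.90 for Dnajb9 to 3.99 for Hecw1.

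The 15 largest falls were taken in the same way. Spink1, a trypsin inhibitor, had 68.7, 4.23 and 6.54 CPM in the day 4 libraries and 600 counts over that day, of which most came from replicate 1, but 1 count over day 5. The ratio of the 2 days was 368, with a 95% counting interval of 65.9 to 14600 that covers counting error only, and the adjusted p was 0.0292. Without day 4 replicate 1 the Spink1 change no longer passed the test (-5.83, adjusted p = 0.0738), and leaving out any day 5 library also ended the call (adjusted p = 0.107, 0.0836 and 0.0958). S100g, a calcium-binding protein of absorptive epithelia, varied as widely, at 85.5, 3.69 and 14.2 CPM on day 4 and 1.07, 0.279 and 0.388 CPM on day 5, and lost its call without day 5 replicate 2 or 3 (adjusted p = 0.064 and 0.0708). Cubn (chr2:13276338-13491813, minus strand), which encodes the endocytic receptor cubilin, was at 8.26, 16.8 and 8.13 CPM and then at 0, 0.279 and 0.582 CPM. All day 5 libraries were below those of day 4, and the change was -5.13 ± 1.26 (adjusted p = 0.00749). Trh, the thyrotropin-releasing hormone precursor, fell from 24.4, 51.9 and 63.5 CPM to 1.07, 5.58 and 3.3 CPM, with no overlap (log2 change -3.85 ± 0.46, adjusted p = 1.1e-05). The other 11 were Mpv17l2, Exosc5, Josd2, Rpp25l, Mterf1b, Tpgs1, Cdc42ep5, Gmppb, Yif1b, Pgls and Smpdl3b. Removing the GC trend moved Tpgs1 from -3.16 to -2.32, Rpp25l from -3.19 to -2.61 and Mpv17l2 from -3.49 to -2.79, and all 3 still passed the test.

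Among trophectoderm transcription factors the genes that passed the test were higher on day 5. Of 22 listed, 19 were tested, 8 rose and 0 fell, with a median log2 change of 0.59. Trophectoderm factor rises and falls numbered 5 and 0 without day 4 replicate 3 or day 5 replicate 1. Gata2 (chr6:88193891-88207032, plus strand), a zinc-finger factor of trophoblast, was at 24.3, 24 and 17.6 CPM on day 4 and at 94.2, 56.3 and 65.8 CPM on day 5. The days did not overlap, and the change was 1.71 ± 0.24 (adjusted p = 4.52e-05), or 2.34 with the GC trend removed. Gata3 (chr2:9857078-9890034, minus strand), which acts beside it in trophectoderm, stood at 12.1, 9.83 and 8.57 CPM and then at 48.3, 27 and 20.6 CPM. Its 3 day 5 libraries were all higher (log2 change 1.65 ± 0.31, adjusted p = 0.000557). Id2, an inhibitor of basic helix-loop-helix factors that is enriched in outer cells of the embryo, went from 293, 252 and 249.8 CPM to 737, 717 and 639 CPM without overlap (1.40 ± 0.20, adjusted p = 6.06e-05). In these bulk libraries, more cells of a type and more RNA per cell cannot be told apart. Arid3a rose by 1.05 ± 0.26. Cdx2, which specifies trophectoderm, was too low to test, with 21 counts over the day 4 libraries and 1 over those of day 5, as was Elf5 with 17 and 12. Eomes (-0.40, adjusted p = 0.481), Tfap2c (0.43, adjusted p = 0.256) and Hand1 (0.96, adjusted p = 0.124) did not pass the test. Sox21 and Esx1, singled out after their values were seen, had changes of 2.19 and 1.90 (adjusted p = 0.0121 and 0.0189). Without day 5 replicate 1 neither passed (adjusted p = 0.0781 for Sox21 and 0.0593 for Esx1), and Esx1 was also lost without day 4 replicate 1, day 4 replicate 3 or day 5 replicate 2 (adjusted p = 0.0732, 0.0655 and 0.0821).

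Products of trophectoderm and early trophoblast gave 8 rises and 2 falls among 37 tested, with a median of 0.41. Trophectoderm product rises and falls numbered 16 and 2 without the GC trend, 5 and 5 with total-count scaling, 10 and 4 without day 3 replicate 3, 7 and 1 without day 4 replicate 1 or day 5 replicate 3, 5 and 1 without day 4 replicate 3, and 5 and 0 without day 5 replicate 1. Atp1b1, the beta subunit of the sodium pump that drives fluid into the blastocoel, was at 31.2, 40.7 and 40.5 CPM and then at 87.3, 92.9 and 94.9 CPM. The day 5 libraries were all higher (1.29 ± 0.23, adjusted p = 0.000456). Fgfr2, the receptor through which trophoblast responds to epiblast FGF4, rose by 1.54 ± 0.29 (adjusted p = 0.000686) from 15.1 ± 5.14 CPM to 43.9 ± 5.89 CPM (SD). S100a6, a calcium-binding protein, rose by 1.67 ± 0.32. The simple-epithelial keratins did not pass the test: Krt18 was at 557, 612 and 564 CPM and then at 766, 637 and 1325 CPM, a change of 0.65 (adjusted p = 0.0898), and Krt8 and Krt7 had changes of 0.54 and 0.50 (adjusted p = 0.167 and 0.333). After removal of the GC trend Krt18 and Krt8 passed, at 1.10 (adjusted p = 0.00339) and 1.04 (adjusted p = 0.00477). Of 15 tested genes of mature trophoblast, 3 rose (20%) and 2 fell (13.3%), beside 14.1% and 14.5% of all tested genes. Phlda2 was among those that fell, with a change of -1.44. It lost its call without day 5 replicate 1 or 2 (adjusted p = 0.0623 and 0.0638). Mature trophoblast rises and falls numbered 5 and 1 without the GC trend, 4 and 1 without day 4 replicate 1, 3 and 1 without day 4 replicate 3 or day 5 replicate 1, and 3 and 0 without day 5 replicate 2. Cdkn1c, the CDK inhibitor p57 that stops the cycle in giant cells, was at 51.4, 35 and 35.9 CPM on day 4 and at 118, 126 and 103 CPM on day 5, with no overlap (1.51 ± 0.27, adjusted p = 0.00039); 625 of its 2039 exon bases face the model Gm44732 on the opposite strand. Nrk, an X-linked placental kinase, rose by 1.54 ± 0.32 and Prl2c5, a prolactin-family gene whose reads may be shared with near-identical copies, went from 2 counts to 91, a ratio of 74.1 (95% counting interval 19.9 to 621).

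**Figure D2:**
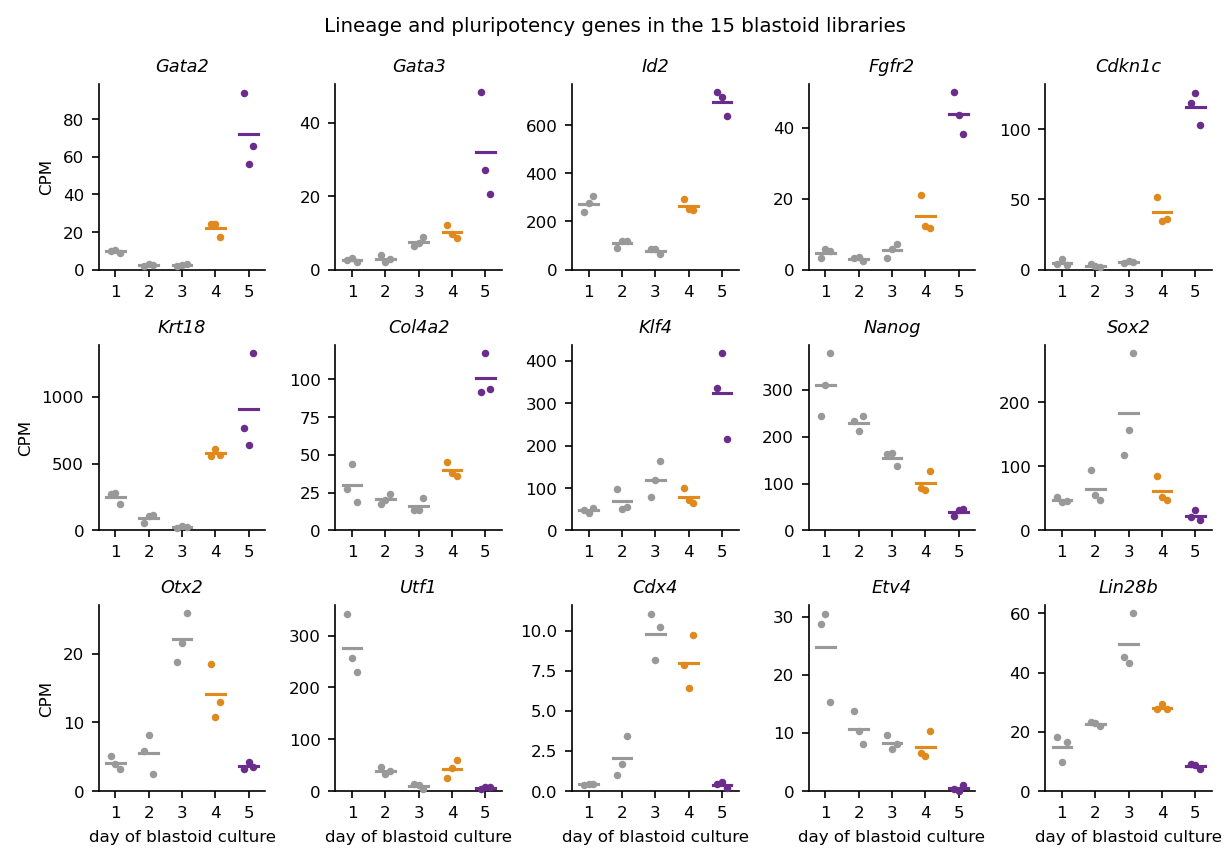
CPM by library on days 1 to 5 (linear vertical axes from 0) for 15 lineage genes; points are libraries, orange on day 4 and purple on day 5, and the short line is the mean of the day. Gata2, Gata3, Id2, Fgfr2, Cdkn1c, Col4a2 and Klf4 are higher on day 5 without overlap, and Nanog, Sox2, Otx2, Utf1, Cdx4, Etv4 and Lin28b lower.

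Genes of cell contacts had more rises than falls in each list, although total-count scaling turned this for desmosomes and keratins. Among 30 tested tight junction genes 14 rose and 2 fell (median 0.44). Tight junction rises and falls numbered 13 and 1 without the GC trend, 6 and 3 with total-count scaling, 15 and 4 without day 3 replicate 3, 9 and 2 without day 4 replicate 2, 9 and 1 without day 4 replicate 3, and 8 and 1 without day 5 replicate 1. Cgn, encoding the junction plaque protein cingulin, was at 17.3, 19.1 and 19.8 CPM and then at 53.4, 50.5 and 61.3 CPM. The libraries of the 2 days did not overlap (1.56 ± 0.24, adjusted p = 0.000104). Mpp5, the PALS1 scaffold of the apical Crumbs complex, rose by 1.33 ± 0.20 and Pard6b, the PAR6 polarity protein needed for cavitation, by 1.29 ± 0.25, whereas Crb3, the Crumbs protein that Mpp5 binds, fell from 34.8, 28.7 and 33.3 CPM to 11.8, 7.53 and 15.5 CPM (-1.46 ± 0.27, adjusted p = 0.000491; -0.91 without the GC trend). The claudin Cldn4 did not pass the test (-0.54, adjusted p = 0.339). Adherens junction genes had 6 rises and 0 falls among 16 tested, with a median of 0.83, and alpha-catenin Ctnna1 rose by 0.95 ± 0.20. Adherens junction rises and falls numbered 3 and 0 with total-count scaling. Of 15 tested desmosome and keratin genes 3 rose and 2 fell. Desmosome and keratin rises and falls numbered 8 and 0 without the GC trend, 2 and 3 with total-count scaling, 3 and 1 without day 4 replicate 2 or day 5 replicate 3, 2 and 1 without day 4 replicate 3, 2 and 0 without day 5 replicate 1, and 3 and 0 without day 5 replicate 2. The plaque genes Pkp2 and Dsp rose by 1.37 ± 0.24 and 1.12 ± 0.28 (adjusted p = 0.000417 and 0.00517).

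Genes of fluid transport gave 3 rises (15.8%) and 1 fall (5.26%) among 19 tested, beside 14.1% and 14.5% of all tested genes. Fluid transport rises and falls numbered 3 and 2 with total-count scaling, 6 and 2 without day 3 replicate 3, and 6 and 1 without day 5 replicate 3. Besides Atp1b1, Fxyd4, a small regulator of the sodium pump, rose by 2.55 ± 0.41, from 2.23, 0.956 and 1.45 CPM to 11.8, 8.64 and 7.18 CPM. Aqp11, an intracellular aquaporin, fell by 2.50 on the log2 scale (SE 0.49, adjusted p = 0.000883), and Aqp3, the aquaglyceroporin of trophectoderm, did not pass the test at 0.96 (adjusted p = 0.0588) although its libraries did not overlap. Among 19 tested apical and microvillus genes 4 rose, which included Ezr, the membrane linker ezrin (0.80 ± 0.19; 0.62 and adjusted p = 0.104 with no filter on low counts), and 1 fell. Apical gene rises and falls numbered 1 and 3 with total-count scaling, 4 and 3 without day 3 replicate 3, 1 and 1 without day 4 replicate 2, 2 and 0 without day 4 replicate 3, 1 and 2 without day 5 replicate 1, and 3 and 0 without day 5 replicate 2 or 3.

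Basement membrane genes had 9 rises and 1 fall among 30 tested (median 0.47). Basement membrane rises and falls numbered 13 and 0 without the GC trend, 5 and 2 with total-count scaling, 7 and 0 without day 4 replicate 1, 6 and 0 without day 4 replicate 3, 9 and 0 without day 5 replicate 1, and 6 and 3 without day 5 replicate 3. Col4a2, a chain of the collagen IV network, was at 45, 38.1 and 36.3 CPM on day 4 and 91.6, 118 and 93.5 CPM on day 5. Its day 5 libraries were all higher, by 1.34 ± 0.27 (adjusted p = 0.00096), or 2.08 without the GC trend. The linker nidogen, Nid1, rose by 1.15 ± 0.29, the laminin receptor chain Itgb1 by 1.19 ± 0.26, and the collagen prolyl hydroxylase subunit P4ha1 by 1.54 ± 0.28. Col4a1, the partner chain of Col4a2, did not pass (0.76, adjusted p = 0.0825).

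Genes of the Hippo pathway, in which apical polarity in outer cells keeps the coactivator YAP in the nucleus to work with TEAD factors, had 12 rises and 1 fall among 24 tested, with a median of 0.74. Hippo pathway rises and falls numbered 13 and 0 without the GC trend, 8 and 2 with total-count scaling, 13 and 2 without day 3 replicate 3, 10 and 0 without day 4 replicate 1 or day 5 replicate 1 or 2, and 7 and 1 without day 4 replicate 3. Amotl2, an angiomotin that binds YAP at junctions and is also its target, was at 58.4, 54.6 and 44.7 CPM and then at 172, 118 and 107 CPM, with no overlap (1.33 ± 0.29, adjusted p = 0.00188). Crim1, Frmd6 and Ankrd1, a classical YAP target, rose by 2.11 ± 0.46, 0.97 ± 0.20 and 3.32 ± 0.70. Actin and contractility genes gave 14 rises and 5 falls among 37 tested (median 0.56). Actin gene rises and falls numbered 9 and 7 with total-count scaling, 9 and 6 without day 4 replicate 2, and 8 and 4 without day 4 replicate 3. Myh10, the nonmuscle myosin IIB chain, went from 81.2, 84.3 and 75.2 CPM to 252, 198 and 226 CPM, and every day 5 library exceeded every day 4 library (1.49 ± 0.19, adjusted p = 1.59e-05). The membrane-binding annexins Anxa1 and Anxa3 and the scaffold gene Ahnak rose by 1.92 ± 0.25, 1.45 ± 0.22 and 1.53 ± 0.24. Actb and Pfn1, beta-actin and the actin-monomer binder profilin, were singled out after their values were seen and fell, with changes of -1.53 ± 0.25 and -2.20 ± 0.40 (adjusted p = 0.000241 and 0.000442).

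Of 25 tested primitive endoderm genes, 4 rose (16%) and 3 fell (12%), near the 14.1% and 14.5% of all tested genes. Primitive endoderm rises and falls numbered 3 and 5 with total-count scaling. Col4a2, Nid1 and Lamb1, which rose, are matrix genes that other epithelia also express, and Lamb1 lost its call without day 4 replicate 3 (0.89, adjusted p = 0.061). Beside Cubn and Amn the gene that fell was the hormone receptor gene Pth1r, singled out after its value was seen, with 31 counts over day 4 and 0 over day 5, at least 6.35-fold lower against 3 counts over day 5 (adjusted p = 0.012). The factor genes Gata4 and Sox17 were too low to test: Gata4 had 17 counts over day 4 and 6 over day 5, and Sox17 had 22 and 9. Gata6 was at 3.54, 3.96 and 3.19 CPM and then at 3, 2.51 and 2.91 CPM, without overlap but with a change of -0.34 that did not pass the test (adjusted p = 0.597), and neither did that of Pdgfra (-1.26, adjusted p = 0.0838). Sox7 had 26 counts over day 4 and 3 over day 5, a ratio of 5.32 (95% counting interval 1.63 to 27.5), and did not pass (adjusted p = 0.0738). Of 11 tested visceral endoderm genes, 0 rose and 5 fell, with a median of -0.86. Visceral endoderm rises and falls numbered 0 and 3 without day 4 replicate 1 or day 5 replicate 1 or 2. Those that fell were Cubn, Spink1, Otx2, Apom and Amn, the partner of cubilin, which had 57 counts and then 3 (ratio 11.7, 95% counting interval 3.8 to 58.3; adjusted p = 0.0504 with the GC trend removed and a replicate block). Apom lost its call without day 4 replicate 1 (-1.25, adjusted p = 0.265), without day 5 replicate 1 (adjusted p = 0.103) or without day 5 replicate 2 (adjusted p = 0.0821). Ttr and Hnf4a, below the filter, had 33 and 13 counts over day 4 and 1 each over day 5.

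Among pluripotency genes, falls outnumbered rises. Among 34 tested naive and general pluripotency genes 15 fell and 5 rose (median -0.48). Pluripotency gene rises and falls numbered 2 and 15 without day 4 replicate 2 and 3 and 15 without day 5 replicate 2. Nanog (chr6:122707489-122714633, plus strand), the homeobox factor of naive epiblast, was at 90.2, 85.4 and 127 CPM on day 4 and at 30.5, 42.9 and 46 CPM on day 5. The 3 day 5 libraries were all lower, by a log2 change of -1.34 ± 0.23 (adjusted p = 0.000281). Sox2, its partner in the pluripotency network, went from 84.9, 52.3 and 47.9 CPM to 21.5, 31.2 and 16.9 CPM without overlap (-1.42 ± 0.33, adjusted p = 0.00321). Pou5f1, whose reads may be shared with the overlapping model Gm19553, had 4.85, 9.83 and 9.73 CPM and then 1.72, 1.39 and 2.52 CPM (-2.07 ± 0.38, adjusted p = 0.000484). Utf1, Gdf3 and Zfp57, a chromatin factor of stem cells, a TGF-beta family ligand and the guardian of imprinted methylation, had changes of -2.76 ± 0.36, -2.26 ± 0.33 and -2.09 ± 0.28. Gbx2 and Tdh, the latter a threonine dehydrogenase typical of mouse embryonic stem cells, fell too, with changes of -2.80 ± 0.53 and -2.43 ± 0.36; both were singled out after their values were seen. Esrrb (-0.29, adjusted p = 0.406), Fgf4 (-0.27, adjusted p = 0.436) and Tdgf1 (-0.73, adjusted p = 0.0534) did not pass the test.

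Klf4 went the other way. This Krüppel-like factor of naive pluripotency and of epithelia was at 100.1, 71.2 and 65.2 CPM on day 4 and 336, 419 and 216 CPM on day 5. The libraries did not overlap (2.04 ± 0.31, adjusted p = 9.27e-05). Zfp42, known as Rex1, had 195, 248 and 308 CPM and then 294, 523 and 367 CPM with overlap, and its change of 0.66 (adjusted p = 0.0436) did not pass without day 4 replicate 1 or 2 (adjusted p = 0.194 and 0.117) or without day 5 replicate 2 or 3 (adjusted p = 0.278 and 0.0559).

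Formative and primed pluripotency genes, those of the epiblast as it moves toward implantation, gave 7 falls and 1 rise among 21 tested (median -0.80). Formative gene rises and falls numbered 4 and 7 without the GC trend, 2 and 7 without day 4 replicate 1, and 0 and 7 without day 5 replicate 1. Otx2 (chr14:48657677-48673819, minus strand), a driver of that transition, was at 18.5, 10.8 and 12.9 CPM and then at 3.22, 4.18 and 3.49 CPM. All day 5 libraries were lower (-1.96 ± 0.37, adjusted p = 0.000629). Lin28b, an RNA-binding repressor of let-7, fell from 28.2 ± 0.923 to 8.48 ± 0.841 CPM (SD), a change of -1.73 ± 0.25 (adjusted p = 5.44e-05). Etv4, an effector of FGF signalling, went from 6.56, 6.01 and 10.3 CPM to 0.429, 0 and 0.97 CPM (-3.83 ± 0.53, adjusted p = 4.29e-05). The gene that rose was Myc, at 1.45 ± 0.35, and without day 5 replicate 1 this was 0.80 (adjusted p = 0.0784). Of 10 tested mesendoderm genes 3 fell and 0 rose: Cdx4, a caudal homeobox gene, went from 7.87, 6.42 and 9.73 CPM to 0.429, 0.558 and 0.194 CPM (-4.34 ± 0.54, adjusted p = 1.59e-05), and Cdx1 and Etv2 had changes of -2.29 ± 0.50 and -3.42 ± 0.76. Nodal did not pass (-0.87, adjusted p = 0.087). Mesendoderm rises and falls numbered 1 and 3 without day 4 replicate 1 and 0 and 5 without day 5 replicate 3.

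Genes of the 2-cell stage gave 5 rises and 0 falls among 24 tested, at a median of 1.10, but most belong to multigene families whose reads cannot be assigned with certainty. Gm2016 rose by 2.08 ± 0.51, from 14.3, 14.2 and 9 CPM to 36.7, 81.7 and 41.3 CPM. 2-cell gene rises and falls numbered 3 and 0 without the GC trend or with total-count scaling or without day 3 replicate 3 or day 5 replicate 1 and 2 and 0 without day 4 replicate 1, 2 or 3 or day 5 replicate 2 or 3. Of 12 germ cell genes 4 rose and 1 fell. Germ cell rises and falls numbered 4 and 2 without the GC trend or with total-count scaling or without day 4 replicate 2 or day 5 replicate 1 and 5 and 2 without day 3 replicate 3. Sycp3, a protein of the meiotic chromosome axis, was at 30.0, 19.8 and 34.3 CPM and then at 114, 184 and 73.2 CPM (2.14 ± 0.32, adjusted p = 8.8e-05), although 660 of its 1264 exon bases face Chpt1 on the opposite strand, and Stra8, a gene of meiotic entry, rose by 1.55 ± 0.29, whereas Nanos3, an RNA-binding protein of primordial germ cells, fell (-2.63 ± 0.60; -4.28 without day 5 replicate 3).

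Signalling genes changed in both directions, beside 14.1% rises and 14.5% falls among all tested genes. BMP and Id genes, at 10% each way, were below these shares. In the FGF pathway, 4 of 21 tested genes rose and 7 fell (median -0.45). Dusp6, the ERK phosphatase that reports FGF activity, fell from 41.4, 38.8 and 33 CPM to 21.5, 10.6 and 13.8 CPM, with no overlap (-1.30 ± 0.23, adjusted p = 0.0004), and the ETS effector Etv5 had a change of -1.12 ± 0.21. Dusp5, a nuclear ERK phosphatase, rose from 16.3, 14.3 and 8.71 CPM to 63.1, 57.4 and 34 CPM (1.97 ± 0.34, adjusted p = 0.000361), as did the adaptor Frs2 (1.18 ± 0.19). Among 20 tested BMP and Id genes 2 rose and 2 fell: the receptor Bmpr1a rose by 1.45 ± 0.26, and Id1 and Id3, direct BMP targets, had changes of -1.55 ± 0.27 and -1.46 ± 0.32 while Id2 rose. Wnt genes gave 3 rises and 5 falls among 25. Ccnd1 and Lef1 fell (-2.13 ± 0.29 and -1.28 ± 0.30), and the TCF-family factor Tcf7l2 rose (1.22 ± 0.32). Wnt gene rises and falls numbered 4 and 3 without the GC trend, 2 and 3 without day 4 replicate 3, 3 and 3 without day 5 replicate 1, and 1 and 4 without day 5 replicate 2. Of 14 tested Nodal and activin genes 3 rose, with the receptor Acvr2a at 1.88 ± 0.36 and the SMAD corepressor Skil at 1.22 ± 0.21, and 2 fell, with the repressor Tgif1 at -0.91 ± 0.20. Nodal pathway rises and falls numbered 5 and 3 without the GC trend, 3 and 4 with total-count scaling, and 4 and 4 without day 3 replicate 3 or day 5 replicate 3.

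Immediate early genes, which cells transcribe within minutes of a stimulus, had more rises than falls. Of 23 tested, 11 rose and 1 fell, with a median of 1.12. Immediate early rises and falls numbered 15 and 0 without the GC trend, 9 and 2 with total-count scaling, 9 and 0 without day 4 replicate 3 or day 5 replicate 2, and 8 and 0 without day 5 replicate 1. Fos (chr12:85473890-85477273, plus strand), a subunit of AP-1, was at 6.69, 6.97 and 8.13 CPM on day 4 and at 61.4, 52.1 and 34.3 CPM on day 5. The groups did not overlap (2.76 ± 0.31, adjusted p = 6.58e-06). Atf3, a stress-induced factor of the same protein family, went from 6.03, 9.97 and 4.65 CPM to 74.7, 59.1 and 59.8 CPM (3.22 ± 0.30, adjusted p = 2.66e-06). Klf6 was the most abundant, at 65.2, 91.1 and 87.3 CPM and then 558, 416 and 369 CPM. Its day 5 libraries were all higher (2.46 ± 0.24, adjusted p = 2.66e-06). Zfp36, which destabilizes AU-rich messenger RNAs, rose by 1.94 ± 0.33 (adjusted p = 0.000306). Fosb, Ier5 and Jun, singled out after their values were seen, also rose: Fosb from 2 counts to 36, a ratio of 29.3 (95% counting interval 7.55 to 251), and Ier5 and Jun by 2.05 ± 0.42 and 1.72 ± 0.45.

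The promoters of 5 genes that rose are shown because known motifs of stimulus response lie in them; they were chosen for those matches, which are therefore no result. Each is the 150 bases before the RefSeq start site in GRCm38.p6, in the gene's direction. Capitals mark the CArG box, the binding site of serum response factor, in Zfp36 (chr7:28379229-28379378, minus strand) and Dusp5 (chr19:53528995-53529144, plus strand), the TEAD motif GGAATG in Ankrd1 (chr19:36119845-36119994, minus strand), and the inner part of the heat shock element, GAANNTTC, in Hspa1b (chr17:34959239-34959388, minus strand) and Hspa1a (chr17:34972157-34972306, minus strand).
Zfp36: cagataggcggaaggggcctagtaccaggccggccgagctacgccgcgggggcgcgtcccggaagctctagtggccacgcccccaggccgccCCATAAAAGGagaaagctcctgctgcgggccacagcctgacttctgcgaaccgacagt
Dusp5: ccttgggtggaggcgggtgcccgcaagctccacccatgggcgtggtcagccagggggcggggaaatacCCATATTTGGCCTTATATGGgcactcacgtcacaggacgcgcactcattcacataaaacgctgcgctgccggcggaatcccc
Ankrd1: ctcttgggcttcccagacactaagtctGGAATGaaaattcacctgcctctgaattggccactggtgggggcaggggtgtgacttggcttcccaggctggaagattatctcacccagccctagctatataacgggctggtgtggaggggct
Hspa1b: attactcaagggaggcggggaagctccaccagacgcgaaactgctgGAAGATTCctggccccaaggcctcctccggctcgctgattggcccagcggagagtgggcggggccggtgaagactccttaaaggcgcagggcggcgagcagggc
Hspa1a: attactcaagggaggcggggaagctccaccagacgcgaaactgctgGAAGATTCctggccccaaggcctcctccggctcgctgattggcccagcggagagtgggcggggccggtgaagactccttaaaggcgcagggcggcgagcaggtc
Zfp36 has 1 CArG box that begins 58 bases before the start site, and Dusp5 has 2, end to end and not overlapping, that begin 82 and 72 bases before it. The Ankrd1 window also holds 1 heat shock element inner part and 1 GATA motif, AGATAA. The Dusp5 window also holds 1 hypoxia response core, ACGTG, on the other strand. The Hspa1a and Hspa1b windows share 149 of 150 bases, and their elements begin 104 bases before the start site. Across 10346 tested genes with a promoter, searched on both strands, a CArG box was found in 0.706%, in 0.825% of the 1455 that rose and in 0.543% of the 1658 that fell. The heat shock element inner part was in 2.71%, 2.68% and 3.8% of the same groups, and the TEAD motif in 5.86%, 5.98% and 5.43%. The hypoxia response core ACGTG was in 15.1%, 17% and 15.9%, the AP-1 motif TGANTCA in 2.64%, 3.02% and 2.35%, and AGATAA in 2.79%, 2.54% and 3.56%. These shares are descriptions, and a match is not a bound site.

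Chaperone and heat shock genes gave 7 rises and 2 falls among 23 tested, at a median of 0.25. Chaperone rises and falls numbered 6 and 1 without the GC trend and 7 and 4 with total-count scaling. Hspa1b, an inducible HSP70, was at 9.31, 9.42 and 6.97 CPM on day 4 and 110.3, 56.9 and 36.1 CPM on day 5, with no overlap (2.98 ± 0.38, adjusted p = 1.73e-05). Its near-identical neighbour Hspa1a, with which it may share reads, rose by 3.08 ± 0.74, the HSP70 cochaperone Bag3 by 1.30 ± 0.30 and the factor Hsf2 by 1.23 ± 0.25 (0.81 without the GC trend). Of 32 genes of the ATF4 and unfolded protein response 6 rose and 2 fell, a median of -0.063. Unfolded protein response rises and falls numbered 5 and 5 with total-count scaling, 5 and 1 without day 4 replicate 2 or 3, 6 and 1 without day 5 replicate 1 or 2, and 6 and 4 without day 5 replicate 3. Dnajb9, an endoplasmic reticulum cochaperone, went from 14.4, 8.74 and 7.41 CPM to 102, 69.7 and 57.1 CPM (2.90 ± 0.29, adjusted p = 2.66e-06). Ppp1r15a, known as GADD34, which restores translation after stress, rose by 1.75 ± 0.28 (adjusted p = 0.000176), and Hspa5, the chaperone BiP, singled out after its value was seen, by 1.24 ± 0.33. Targets of p53 gave 7 rises (20.6%) and 3 falls (8.82%) among 34 tested, beside 14.1% and 14.5% of all tested genes. Target gene rises and falls numbered 4 and 6 with total-count scaling, 8 and 5 without day 3 replicate 3, 4 and 2 without day 5 replicate 1 or 2, and 7 and 5 without day 5 replicate 3. Plk2, a polo-like kinase that is also an early response gene, was at 41.3, 35.4 and 36.6 CPM and then at 238, 139 and 154 CPM. The days did not overlap (2.23 ± 0.22, adjusted p = 2.66e-06). Eda2r and Ppm1d rose by 1.51 ± 0.28 and 1.22 ± 0.24, and Phlda3 fell (-2.44 ± 0.44). Cdkn1a, the p21 inhibitor, was at 134, 107 and 152 CPM and 119.7, 116 and 182 CPM and did not pass (0.09, adjusted p = 0.856). Among 29 tested apoptosis regulators 5 fell and 1 rose. Apoptosis gene rises and falls numbered 0 and 7 with total-count scaling and 0 and 4 without day 4 replicate 3. Bid, Bad and Bax, proteins that promote mitochondrial cell death, had changes of -1.75 ± 0.22, -1.72 ± 0.29 and -1.77 ± 0.35 (adjusted p = 2.01e-05, 0.000266 and 0.000914); the Bax change was -0.92 without the GC trend and still passed.

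**Figure D3:**
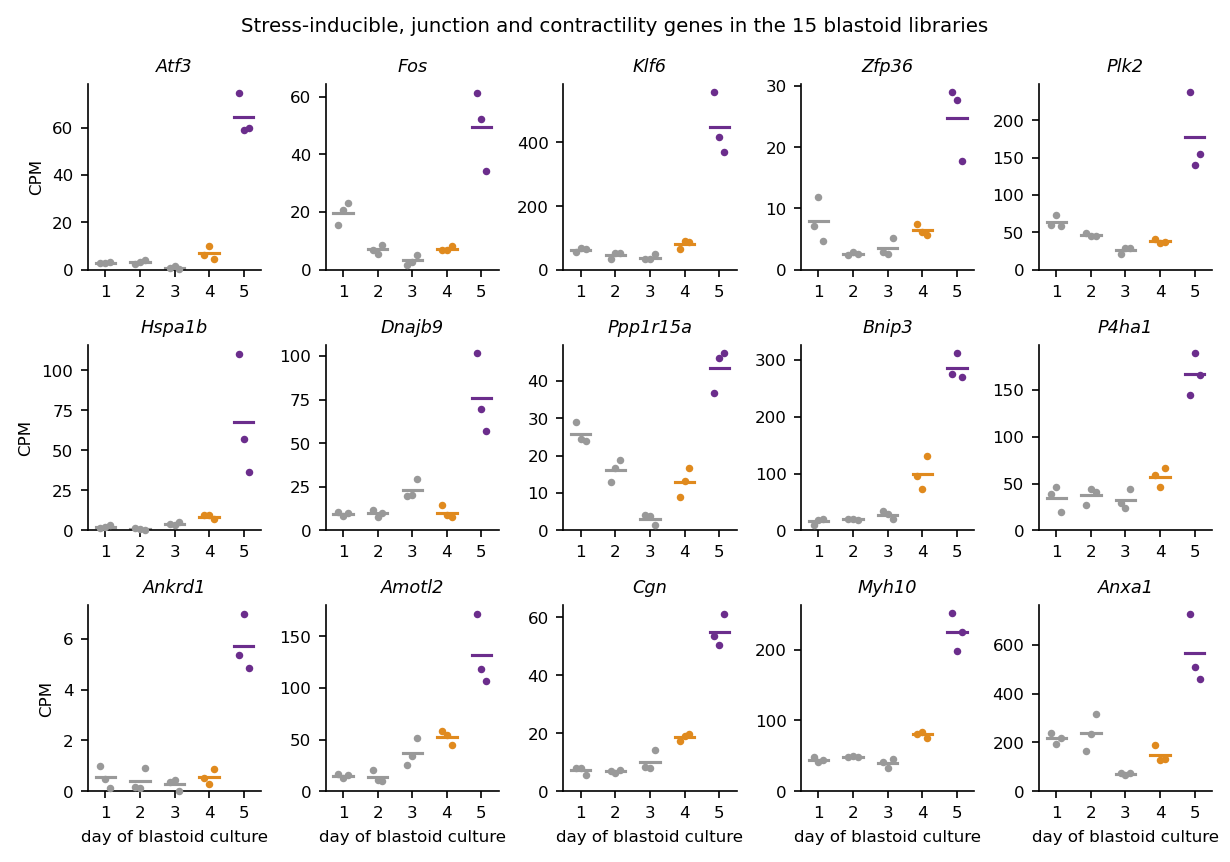
CPM by library on days 1 to 5 (linear vertical axes from 0) for 15 genes of stress, hypoxia, junctions and actin; points are libraries, orange on day 4 and purple on day 5, and the short line is the mean of the day. In every panel the day 5 libraries lie above those of day 4, with Atf3, Fos and Hspa1b among the largest steps.

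Genes induced by low oxygen through the HIF factors had more rises than falls. Of 26 tested 13 rose and 0 fell (median 0.84). Hypoxia gene rises and falls numbered 14 and 1 without the GC trend, 10 and 1 with total-count scaling, 13 and 2 without day 3 replicate 3, and 9 and 1 without day 4 replicate 2. Bnip3, a mitophagy receptor, was at 95.4, 73.2 and 130.1 CPM and then at 275, 312 and 269.5 CPM. All day 5 libraries were higher (1.52 ± 0.26, adjusted p = 0.000298). Ero1l, an oxidase of the endoplasmic reticulum, P4ha1 and the histone demethylase Kdm3a rose by 1.38 ± 0.25, 1.54 ± 0.28 and 1.03 ± 0.20. Vegfa, the angiogenic growth factor, rose by 1.69 ± 0.36 and was singled out after its value was seen. Oxidative stress genes had more falls, with 3 rises and 10 falls among 25 (median -0.63). Oxidative stress rises and falls numbered 4 and 6 without the GC trend and 3 and 6 without day 5 replicate 2. Gclc, the limiting enzyme of glutathione synthesis, rose (1.18 ± 0.25), and Sod2, the mitochondrial superoxide dismutase, and Gsr, glutathione reductase, fell (-1.08 ± 0.26 and -0.87 ± 0.22).

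Several lipid synthesis genes fell. Among 23 tested cholesterol synthesis genes 8 fell and 1 rose (median -0.32). Cholesterol gene rises and falls numbered 2 and 9 without the GC trend, 0 and 10 with total-count scaling, 0 and 8 without day 4 replicate 2, and 0 and 6 without day 4 replicate 3 or day 5 replicate 2. Mvd, the mevalonate diphosphate decarboxylase, went from 17.2, 15.2 and 23.7 CPM to 4.94, 4.74 and 8.93 CPM, with no overlap (-1.57 ± 0.32, adjusted p = 0.0013; -0.96 without the GC trend), and Tm7sf2, a sterol reductase gene, had a change of -1.54 ± 0.31. Fatty acid and lipid handling genes gave 2 rises and 6 falls among 27 tested. Lipid handling rises and falls numbered 4 and 6 without day 3 replicate 3, 2 and 2 without day 4 replicate 2, and 2 and 3 without day 4 replicate 3 or day 5 replicate 1 or 2. Fasn, the fatty acid synthase, fell from 52.6, 42.9 and 46.8 CPM to 14.2, 13.4 and 19.6 CPM (-1.59 ± 0.24, adjusted p = 0.000124; -1.03 without the GC trend). Apoe, an apolipoprotein, also fell (-1.82 ± 0.37). Pparg, the nuclear receptor of lipid storage that also acts in trophoblast, rose from 10.4, 9.97 and 10.7 CPM to 56, 32.9 and 35.5 CPM. Its libraries did not overlap (2.00 ± 0.26, adjusted p = 2.36e-05). Of 22 tested glycolysis genes 3 rose, hexokinase Hk1 (1.53 ± 0.34) among them, and 1 fell. Glycolysis rises and falls numbered 1 and 2 with total-count scaling, 1 and 0 without day 4 replicate 2, 2 and 0 without day 4 replicate 3 or day 5 replicate 1, 3 and 0 without day 5 replicate 2, and 2 and 2 without day 5 replicate 3. Among 86 nuclear respiratory chain genes 10 rose (11.6%) and 11 fell (12.8%), near the 14.1% and 14.5% of all tested genes, with a median of 0.18. Respiratory chain rises and falls numbered 3 and 15 with total-count scaling, 15 and 17 without day 3 replicate 3, 1 and 9 without day 4 replicate 2, 2 and 8 without day 4 replicate 3, 6 and 8 without day 5 replicate 1, 1 and 7 without day 5 replicate 2, and 17 and 13 without day 5 replicate 3. Atp5d, Ndufs8 and Ndufs7 had changes of -1.84 ± 0.22, -1.91 ± 0.37 and -1.97 ± 0.41, and the Atp5d value was -1.19 without the GC trend. Cox7a1 went the other way, with a change of 1.63 (1.25 to 1.81 with a library of day 4 or 5 left out). Of 14 mitochondrially encoded genes 1 fell and 0 rose. Mitochondrial gene rises and falls numbered 0 and 5 without the GC trend, 0 and 2 with total-count scaling or without day 3 replicate 3, and 0 and 0 without day 4 replicate 2 or day 5 replicate 2 or 3. Lysosomal genes gave 3 rises, including the membrane protein Lamp2 (1.45 ± 0.30) and the autophagy receptor Sqstm1 (1.24 ± 0.26), and 2 falls among 34. Lysosomal rises and falls numbered 4 and 1 without the GC trend, 2 and 0 without day 4 replicate 2 or day 5 replicate 1 or 2, and 2 and 1 without day 4 replicate 3.

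In the cell cycle, the D-type cyclins, which drive cells through G1, fell. Ccnd2 was at 31.2, 30.6 and 42.5 CPM and then at 11.2, 6.97 and 7.18 CPM, with no overlap (-2.04 ± 0.26, adjusted p = 2.36e-05), and Ccnd3 and Ccnd1 had changes of -1.96 ± 0.36 and -2.13 ± 0.29. These are 3 of the 4 genes that fell among 17 G1 genes, and the 1 that rose was Cdkn1c. G1 gene rises and falls numbered 2 and 4 without day 4 replicate 1. S phase genes gave 6 rises and 12 falls among 44 tested. S phase rises and falls numbered 5 and 18 with total-count scaling, 5 and 6 without day 4 replicate 3, 5 and 5 without day 5 replicate 1, and 6 and 2 without day 5 replicate 2. The histone messenger RNA binder Slbp, cyclin Ccne2 and the licensing factor Cdc6 rose by 1.43 ± 0.23, 1.31 ± 0.25 and 1.09 ± 0.19 (0.86 for Ccne2 without the GC trend), and the clamp loader Rfc2 fell (-1.50 ± 0.27). Of 40 tested G2 and M genes 9 rose and 5 fell. G2 and M rises and falls numbered 5 and 3 without the GC trend or without day 4 replicate 2 or day 5 replicate 1 or 2, 6 and 8 with total-count scaling, 13 and 8 without day 3 replicate 3, 5 and 5 without day 4 replicate 1, and 7 and 3 without day 4 replicate 3. Anln and Hmmr, which act in cytokinesis and on the spindle, rose by 1.07 ± 0.20 and 1.08 ± 0.21, and the mitotic kinase Plk1 fell (-1.42 ± 0.28). Among 32 histone genes 2 rose and 4 fell, with the linker histone Hist1h1e at -2.84 ± 0.34. Histone rises and falls numbered 0 and 9 with total-count scaling, 3 and 8 without day 3 replicate 3, 1 and 5 without day 4 replicate 1, 0 and 4 without day 4 replicate 2, 0 and 3 without day 4 replicate 3, 2 and 2 without day 5 replicate 1, 0 and 6 without day 5 replicate 2, and 1 and 3 without day 5 replicate 3.

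Ribosomal protein genes gave 6 rises (7.23%) and 8 falls (9.64%) among 83 tested, with a median of 0.20. Ribosomal protein rises and falls numbered 10 and 6 without the GC trend, 3 and 11 with total-count scaling, 13 and 11 without day 3 replicate 3, 1 and 8 without day 4 replicate 2, 3 and 6 without day 4 replicate 3, 4 and 4 without day 5 replicate 1, 0 and 5 without day 5 replicate 2, and 13 and 10 without day 5 replicate 3. Among the 8 that fell was Rpsa, a protein of the small subunit, with a log2 change of -1.28 (SE 0.26, adjusted p = 0.00133). Ribosome biogenesis genes gave 2 rises and 5 falls among 37. Biogenesis rises and falls numbered 1 and 3 without the GC trend or without day 5 replicate 1, 2 and 8 with total-count scaling or without day 5 replicate 3, 4 and 8 without day 3 replicate 3, and 2 and 3 without day 4 replicate 2 or 3 or day 5 replicate 2.

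Splicing factor genes are of interest because the culture began with a splicing inhibitor. Of 46 tested, 15 rose and 7 fell (median 0.22). Splicing factor rises and falls numbered 9 and 11 with total-count scaling, 8 and 7 without day 4 replicate 1 or 3, and 9 and 6 without day 5 replicate 1. Clk1, a kinase of SR splicing proteins, was at 188, 185 and 182 CPM on day 4 and at 898, 755 and 568 CPM on day 5. Each day 5 library was higher (2.00 ± 0.25, adjusted p = 1.59e-05), and its relative Clk4 rose by 1.79 ± 0.22. Snrpa, a protein of the U1 particle, fell from 76.1, 90.4 and 93.2 CPM to 14.4, 16.2 and 16.1 CPM, with no overlap (-2.48 ± 0.23, adjusted p = 2.66e-06). Sf3b5, a subunit of the SF3B complex that PlaB binds, also fell (-2.07 ± 0.26, adjusted p = 1.63e-05).

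Imprinted genes gave 9 rises and 4 falls among 28 tested. Imprinted gene rises and falls numbered 6 and 6 with total-count scaling and 8 and 2 without day 4 replicate 3 or day 5 replicate 1. Kcnq1ot1, the paternally expressed antisense RNA of the domain that holds Cdkn1c, went from 79, 152 and 141 CPM to 922, 589 and 381 CPM (2.35 ± 0.38, adjusted p = 0.000203). Xist, the RNA of X inactivation, rose by 1.52 ± 0.31. DNA methylation genes had 2 rises and 6 falls among 20. Methylation gene rises and falls numbered 1 and 8 with total-count scaling, 1 and 5 without day 4 replicate 1 or 2 or day 5 replicate 2, 1 and 4 without day 4 replicate 3, and 0 and 3 without day 5 replicate 1. The methyl-CpG protein gene Mbd3 fell (-1.89 ± 0.30; -1.09 without the GC trend). Of 56 tested KRAB zinc finger genes numbered from Zfp900, which include repressors of transposable elements, 5 rose and 7 fell. Zinc finger rises and falls numbered 2 and 23 without the GC trend, 2 and 13 with total-count scaling, 6 and 11 without day 3 replicate 3, 3 and 6 without day 4 replicate 1 or 2, 2 and 6 without day 4 replicate 3, 2 and 8 without day 5 replicate 1, 3 and 8 without day 5 replicate 2, and 4 and 4 without day 5 replicate 3. Zfp961 was at 75.4, 90.0 and 96.4 CPM and then at 35.2, 35.1 and 30.3 CPM, with no overlap (-1.38 ± 0.24, adjusted p = 0.000396). Interferon and antigen presentation genes gave 5 rises, with H2-K1 at 1.03 ± 0.27, and 7 falls, with the RNA sensor Ddx58 at -1.68 ± 0.31, among 21. Interferon gene rises and falls numbered 5 and 3 without the GC trend, 3 and 8 with total-count scaling, 2 and 5 without day 4 replicate 2, 2 and 4 without day 4 replicate 3, 2 and 2 without day 5 replicate 1, and 3 and 4 without day 5 replicate 2. Of 20 tested chemokine and cytokine genes 1 rose, and of 13 retinoic acid genes 1 rose, which was Stra8, and 1 fell. Chemokine rises and falls numbered 4 and 0 without the GC trend, 0 and 0 without day 4 replicate 1 or day 5 replicate 1, 1 and 2 without day 4 replicate 2, and 2 and 0 without day 5 replicate 3. Retinoic acid rises and falls numbered 1 and 4 with total-count scaling, 2 and 3 without day 3 replicate 3, and 2 and 1 without day 4 replicate 1 or day 5 replicate 3.

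Markers of other cell types were also measured. Of 22 tested feeder fibroblast markers, whose sums are given above, 0 rose and 2 fell, with a median of -0.14. Those that fell were Bgn and Loxl1, with changes of -2.1 and -1.8. Without day 4 replicate 1 neither passed (adjusted p = 0.0968 for Bgn and 0.121 for Loxl1). Loxl1 also lost its call with the GC trend removed (adjusted p = 0.195). Feeder marker rises and falls numbered 1 and 1 without the GC trend, 1 and 2 without day 3 replicate 3, 0 and 0 without day 4 replicate 1, 0 and 1 without day 4 replicate 3 or day 5 replicate 1 or 2, and 1 and 3 without day 5 replicate 3. The collagen gene Col1a1 had 19 counts over day 4 and 3 over day 5 and did not pass the test. Tagln and S100a4 had 0 counts on both days. Col3a1, another fibrillar collagen gene, was at 1.31, 0.546 and 1.16 CPM and then at 4.08, 2.23 and 0.97 CPM (1.24, adjusted p = 0.0726). Of 16 blood and macrophage markers 5 were tested and 1 rose: Itgam, an integrin chain, with 1 count on day 4 and 49 on day 5 (ratio 79.8, 95% counting interval 13.7 to 3210), whereas the leukocyte gene Ptprc had 4 and 2 counts. The model Gm49368 covers 3450 of the 5024 exon bases of Itgam on the same strand, so its reads are uncertain. Their sum was 20.2 to 29.2 CPM on day 4 and 29.8 to 44.8 CPM on day 5. Among 5 tested endothelial markers 1, Plvap, fell (-2.48 ± 0.64), and the defining gene Cdh5 had 1 count and then 0. The 7 tested neural markers summed to 292 to 319 CPM on day 4 and 92.7 to 192 CPM on day 5, most of it from Stmn2, a microtubule regulator, which fell from 305, 290.4 and 280.1 CPM to 78.5, 179 and 162 CPM (-1.06 ± 0.27). Neural marker rises and falls numbered 2 and 2 without the GC trend, 0 and 1 without day 4 replicate 2 or 3 or day 5 replicate 1, and 1 and 1 without day 5 replicate 3.

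Calls were spread unevenly over transcript composition. Of 2433 genes with under 42% GC in the longest transcript 25.6% rose and 7.23% fell, while of 3303 with over 54% GC 5.33% rose and 25% fell. With the GC trend removed these were 423 and 361 genes in the first class and 426 and 455 in the last. Transcripts of over 1000 and up to 2000 bases had 8.44% rises and 26.8% falls among 2641 genes, and those over 4000 bases 20.1% and 7.79% among 5029. By gene type, models awaiting experimental checks (TEC in GENCODE) gave 136 rises and 19 falls among 495, or 117 and 32 without the GC trend, and small nuclear RNA genes gave 7 rises and 0 falls among 19. Smart-seq2 primes on poly(A) tails, which most of these small RNAs lack. The plot of GC balance shows both the libraries and the classes.

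**Figure D4:**
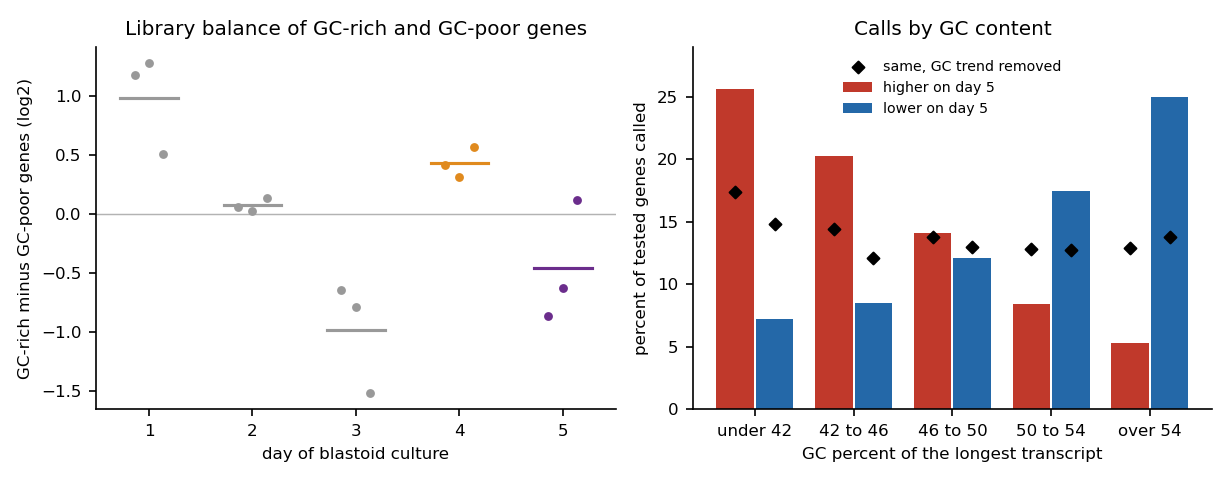
Left, the balance of GC-rich against GC-poor genes in each library (log2, relative to the mean of all libraries) by day, with day 4 in orange and day 5 in purple; right, the percent of genes that rose or fell from day 4 to day 5 by GC class of the longest transcript, with diamonds for the fit with the GC trend removed. Rises lie at 25.6% in the GC-poorest class and 5.33% in the GC-richest, and the diamonds differ less between classes.

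The number of changed genes was set beside that of the earlier steps. From day 1 to day 2 6.96% of genes changed, from day 2 to day 3 25.6%, and from day 3 to day 4 27.9%; the last of these shares the day 4 libraries with the step described here. With the GC trend removed 545, 3088 and 2801 genes changed in these 3 steps, against 2126 rises and 1998 falls from day 4 to day 5. The step from day 2 to day 3 shares none, so its difference from the last step was tested. That difference passed the test in 14% of genes, 993 of which moved higher in the last step and 1120 lower. The middle step includes day 3 replicate 3, which had 13.5% mitochondrially encoded counts, against 5.5% and 4.71% in replicates 1 and 2. Its GC balance was -1.52, against -0.65 and -0.79, and its balance of long against short transcripts 0.87, against -0.17 and 0.14. The difference was not fitted without this library, so its part in these counts was not tested. Across genes the log2 changes of the 2 steps had a Spearman correlation of 0.267, or 0.171 without the GC trend, as a description over genes that are not independent.

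Among actin genes, 19 of 37 were higher in the last step than in the middle one and 0 lower, beside 12 of 37 trophectoderm products and 7 of 23 immediate early genes. Of all 15121 tested genes, 993 were higher and 1120 lower in the last step. Anxa1 had a change of -1.75 in the middle step against 1.92 in the last, a difference of 3.68 ± 0.36 (adjusted p = 7.94e-06). Fos and Atf3 differed by 3.94 ± 0.47 and 4.98 ± 0.51, and Pparg and Ppp1r15a by 4.20 ± 0.44 and 4.06 ± 0.43. Krt18 differed as well (2.48 ± 0.41, adjusted p = 0.000651). Formative pluripotency genes gave 11 of 21 lower and 2 higher: Otx2 and Lin28b had changes of 1.99 and 1.12 in the middle step and of -1.96 and -1.73 in the last (adjusted p of the differences = 5.43e-05 and 2.85e-05), and Sox2, of the general pluripotency list, changes of 1.49 and -1.42 (adjusted p = 0.000418). For Gata3 (0.32 ± 0.47, adjusted p = 0.694), Cdkn1c (0.58 ± 0.44, adjusted p = 0.408) and Nanog (-0.77 ± 0.31, adjusted p = 0.104) the difference between the steps did not pass the test.

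**Figure D5:**
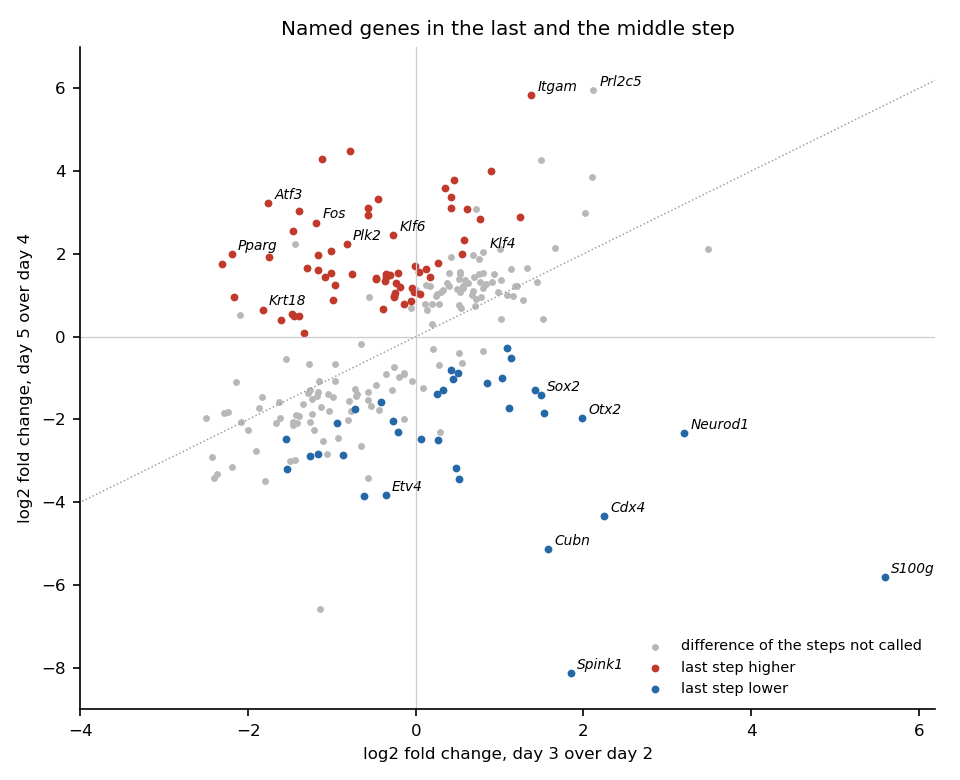
Change from day 2 to day 3 (horizontal axis, log2) against change from day 4 to day 5 (vertical axis, log2) for the 241 named genes; the dotted line marks equal changes, red points are the 64 genes higher in the last step by the test of the difference and blue points the 35 lower. Atf3, Fos and Pparg lie well above the line, and Cdx4, Otx2 and S100g well below it. The middle step includes day 3 replicate 3, which stood apart in the library measures.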

How the data were processed

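Smart-seq2 RNA profiles of 15 blastoid libraries, 3 per day, were read from the deposited table of whole-number counts per gene symbol; the authors aligned reads to mm10 and counted them with STAR 2.7.10b and HTSeq 0.13.5, per the submitters' processing notes. For the annotation release and strand setting nothing is stated in the sources used here, so reads of overlapping or antisense genes cannot be told apart. Counts were analysed in R 4.3.3 with edgeR 4.0.16: TMM scaling, filterByExpr (minimum count 10, minimum total 15), a robust quasi-likelihood fit with 1 mean per day over all 15 libraries, and the contrast of day 5 minus day 4, with Benjamini-Hochberg adjustment over all 15121 tested genes and a threshold of 0.05. The common biological coefficient of variation was 0.258. CPM values are TMM-scaled, and standard errors are the size of the log2 fold change divided by the square root of F. The scripts were tested on simulated data.

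Named genes were the 15 with the largest change in each direction among called genes with at least 10 CPM in the higher day and no overlap between libraries, up to 4 members of each of 52 lists with the smallest adjusted p, and a fixed set of markers; values of some of these genes are not reported here. The genes, lists and alternatives were chosen with earlier results of these data known. Gene models and GC content came from GENCODE M21 on GRCm38, in which 53663 of 54352 symbols matched 1 gene, and promoters from RefSeq. Library measures were compared by exact two-sided permutation tests. Counting intervals for ratios are exact 95% intervals and cover counting error only, and 3 counts over a day stand for the limit that a count of 0 allows.

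Alternatives were DESeq2 1.42.0, limma-voom (limma 3.58.1), other scalings and filters, the 6 libraries alone, thinning to the smallest library, a test against a 1.2-fold change, removal of the trend with GC content (loess span 0.5), a replicate block and each library left out. Replicate numbers were not used to pair libraries in the main analysis. The 4 libraries of flat cultures were not used here.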

Additional observations from a re-analysis of the deposited data

Results flagged for a closer look

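The change from day 4 to day 5 was tested against the change from day 2 to day 3, a step with which it shares no library, and the difference passed the test (edgeR quasi-likelihood test, adjusted p under 0.05) in 993 genes that were higher in the last step and in 1120 that were lower. The middle step includes day 3 replicate 3, with 13.5% mitochondrially encoded counts, and the difference was not fitted without that library. Among the named genes 64 were higher and 35 lower. The higher ones with the smallest adjusted p of the difference included Atf3, Plk2, Anxa1, Pparg and Ppp1r15a, and the lower ones included Cdx4, Lin28b and Otx2. S100g and Spink1, which varied between day 4 libraries, were also among the lower ones.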

How the results depend on the processing

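Of 205 named genes that passed the test, 162 passed under every alternative that tested them, and no gene was called in the opposite direction under any of them. The 6 libraries alone tested 198 of the 205, and the minimum of 10 counts in every library of a day 202. Calls that passed again in the same direction ranged from 63.8% without day 5 replicate 1 to 99.9% with that minimum. These shares are over the genes that both fits tested, and the other calls no longer passed. The number of genes that rose was 1361 with total-count scaling and ranged from 1405 (without day 4 replicate 3) to 2677 (without day 3 replicate 3) when a library was left out, with 1421 without day 5 replicate 1. The number that fell ranged from 1455 (without day 5 replicate 1) to 2684 (without day 3 replicate 3). DESeq2 called 2445 and 2243 genes. With the GC trend removed, 545 genes changed from day 1 to day 2 and 2801 from day 3 to day 4. The cause was not tested. The difference between the last and the middle step was called in 1686 genes with a replicate block and in 2570 without the GC trend. It was not fitted with a library left out.

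With a replicate block 1886 genes rose and 1927 fell, and 87.8% of calls passed again in the same direction. The deviations of libraries with the same number correlated by 0.0492, -0.0659 and 0.102 across genes, so the numbers were not taken to pair them. Of the named genes 5 lost their call under the block.

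Named genes that changed sign had not passed the test and did not pass after it. Esrrb was at 0.084 and Gata6 at 0.0791 without the GC trend, and at 0.0984 and 0.0932 with the block added. Cdkn1a was at -0.115 under scaling by library totals and at -0.083 when low counts were kept, and ranged from -0.154 to 0.201 when a library was left out, with -0.0542 without day 4 replicate 2. The ranges with a library left out were -1.07 to 0.0848 for Fcer1g, -0.411 to 0.113 for Pecam1 and -0.00167 to 0.543 for Esam. With 3 libraries a day and fewer reads on day 5, genes of a few counts are limited by depth.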
